A study of Danio rerio with 2 samples.

Results

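Brain cells that carried RNA of a vesicular glutamate transporter together with RNA of a synaptic vesicle release gene, and no RNA of genes typical of GABAergic, thalamic, retinal or peripheral-type neurons, were taken as mature glutamatergic neurons outside thalamus and retina. A cell barcode was retained with 200 to 3000 detected genes, under 20000 unique molecular identifiers (UMIs, each standing for a captured RNA molecule) and under 15% mitochondrial UMIs. It was selected with at least 2 UMIs of slc17a6a plus slc17a6b, at least 1 UMI of snap25a and 0 UMIs of gad1b, gad2, tcf7l2, vsx1, rbpms2a, rbpms2b and prph. The rule found 340 of 16661 retained cells, namely 121 of 8511 in the rb1 mutant library and 219 of 8150 in the sibling library.

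The study isolated whole brains of zebrafish larvae 3 days post fertilization, dissociated them with papain and made 1 droplet library per genotype with a 3' single-cell kit. The mutant library came from rb1smu2/smu2 larvae, which carry the smu2 allele on both chromosomes, and the reference library from sibling larvae whose genotype is labelled wt. The number of brains pooled per library was not given in the sources used here. With 1 library per genotype there is no replicate check and no test between genotypes, and the 95% intervals given here cover counting error only. In suspensions of dissociated tissue, fewer neurons in the brain and fewer neurons recovered from it cannot be told apart.

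The slc17a6 genes encode vesicular glutamate transporters of the VGLUT2 type, which load glutamate into synaptic vesicles, and they mark most excitatory neurons of the fish midbrain, hindbrain and diencephalon. snap25a encodes a SNARE protein that drives fusion of vesicles with the presynaptic membrane, so its RNA marks neurons that have begun to build synapses. Glutamatergic neurons of different brain regions arise from separate progenitor domains and keep distinct combinations of transcription factors, such as T-box and NeuroD factors in the pallium, Otp factors in the hypothalamus and Hox and Phox2 factors in the hindbrain. rb1 encodes the retinoblastoma protein, which binds E2F factors and restrains entry into S phase.

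The rb1 mutant library held 8799 barcodes and the sibling library 8557, with a median of 3698 and 3410 UMIs per retained cell. The selected neurons had a median of 3618 UMIs and 1454 genes in the rb1 mutant and of 3838 UMIs and 1546 genes in the sibling. The libraries shared 16 barcodes, and no barcode was selected in both. rb1 itself (ENSDARG00000006782) had 198 UMIs over all retained mutant cells, or 5.46 CPM (UMIs per 1000000), and 191 UMIs or 5.88 CPM over all retained sibling cells. No rb1 UMI was found in the selected neurons of either library, which allows up to 6.39 CPM in the rb1 mutant and 3.44 CPM in the sibling by a floor of 3 counts. A 3' tag reads the end of the transcript and does not check the smu2 allele.

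Because UMIs chose the cells, the values of the choosing genes are a description. The transporters had 204 CPM (slc17a6a) and 584 CPM (slc17a6b) in the mutant neurons, and 225 CPM (slc17a6a) and 634 CPM (slc17a6b) in the sibling neurons. slc17a6b was seen in 109 of 121 mutant and 197 of 219 sibling neurons, slc17a6a in 61 and 120, and both genes in 49 and 98. The VGLUT1-type genes slc17a7a and slc17a7b had no UMI in the mutant neurons and 1 UMI each in the sibling neurons. Many cells sat at the threshold. Exactly 2 slc17a6 UMIs were carried by 63 mutant and 93 sibling neurons and 3 UMIs by 33 and 51, with a highest value of 11 in both libraries. Just outside the rule were 176 mutant and 206 sibling cells with 1 slc17a6 UMI, 39 and 76 cells with enough slc17a6 but no snap25a, and 19 and 27 cells with 1 UMI of an excluded gene.

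The defining transporters of inhibitory neurons were near 0, while other genes of the marker lists were not. slc32a1, the vesicular transporter for GABA and glycine, had 1 UMI in the mutant neurons and 3 UMIs in the sibling neurons, and slc6a5, the glycine transporter, had 0 and 1. The GABAergic list without the excluded genes had 107 UMIs in 53 of 121 mutant neurons and 192 UMIs in 86 of 219 sibling neurons. Most of them were of slc6a1a, with 45 and 106 UMIs, and slc6a1b, with 51 and 73, which take up GABA.

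Genes of the retinal lists were also found. The photoreceptor list had 60 UMIs in 14 mutant neurons and 222 UMIs in 54 sibling neurons, of which neurod1, also a factor of brain neurons, gave 56 and 185 UMIs. crx, a photoreceptor factor, had 0 UMIs in the mutant neurons and 14 UMIs in 4 sibling neurons, and the cone gene gnat2 had 0 and 1. The bipolar cell list was found in 55 mutant and 95 sibling neurons. Without the excluded genes, the retinal ganglion cell list was found in 46 mutant and 94 sibling neurons, while its genes atoh7 and isl2b were in 0 and 1 mutant neurons and in 1 and 4 sibling neurons. The amacrine and horizontal cell list had 271 UMIs in 64 mutant neurons and 250 UMIs in 92 sibling neurons, or 577 CPM and 287 CPM, a ratio of 2.01 (1.69 to 2.4). It holds lhx1a, onecut1 and tfap2b, which brain neurons also use. tfap2b, an AP-2 factor, had 82 UMIs in 9 mutant neurons and 31 UMIs in 12 sibling neurons. Whether retinal cells were among the selected neurons was not tested.

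The list of cranial sensory and motor neurons had 289 UMIs in 53 mutant neurons and 400 UMIs in 96 sibling neurons, or 616 CPM and 459 CPM, against 298 CPM and 312 CPM in the other retained cells. It includes phox2bb, with 108 and 106 UMIs, and the neurotrophin receptor gene ntrk3a, with 25 and 77 UMIs. chata, which makes acetylcholine in motor neurons, was found in 1 mutant and 2 sibling neurons. Whether such neurons were among the selected cells was not tested.

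Free RNA was gauged in mesenchyme cells, which should lack neuronal genes and were defined by at least 3 collagen or other connective tissue genes and no snap25a. At least 2 slc17a6 UMIs were found in 0 of 1226 mesenchyme cells of the rb1 mutant and in 3 of 1304 (0.230%) of the sibling, at a median depth of 5797 and 5332 UMIs. As cells with snap25a were left out, this group cannot gauge free snap25a RNA and may understate free slc17a6 RNA.

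Mature glutamatergic neurons made up 1.42% (95% Clopper-Pearson interval 1.18 to 1.70) of retained cells in the rb1 mutant library and 2.69% (2.35 to 3.06) in the sibling library, a ratio of 0.529 (0.420 to 0.664). The intervals of both shares did not overlap. Among all cells with a snap25a UMI, the same neurons made up 5.47% in the rb1 mutant and 8.75% in the sibling, a ratio of 0.625 (0.497 to 0.784). All cells with snap25a were themselves at a ratio of 0.846 (0.799 to 0.896).

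Related neurons were also a smaller share of the mutant library. Glutamatergic neurons with tcf7l2, a factor of thalamus and pretectum, were 38 of 8511 cells (0.447%) in the rb1 mutant and 78 of 8150 cells (0.957%) in the sibling, a ratio of 0.467 (0.308 to 0.696). GABAergic neurons, chosen by gad1b or gad2 with snap25a and no slc17a6 UMI, numbered 278 and 394, a ratio of 0.676 (0.577 to 0.790). Glutamatergic cells without snap25a numbered 39 and 76, a ratio of 0.491 (0.325 to 0.732). The interval of the selected neurons' ratio overlapped those of these 3 groups. Mesenchyme cells were at 0.9003. A deeper cell reaches the UMI minimums of the rule more easily, but also shows an excluded gene more easily. Each cell with at least 2000 UMIs was therefore also thinned to 2000 UMIs before the rule was applied. Then 44 of 6350 mutant cells (0.693%) and 88 of 5386 sibling cells (1.63%) qualified, a ratio of 0.424. Cells with an excluded gene at full depth can enter this thinned set.

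**Figure D1:**
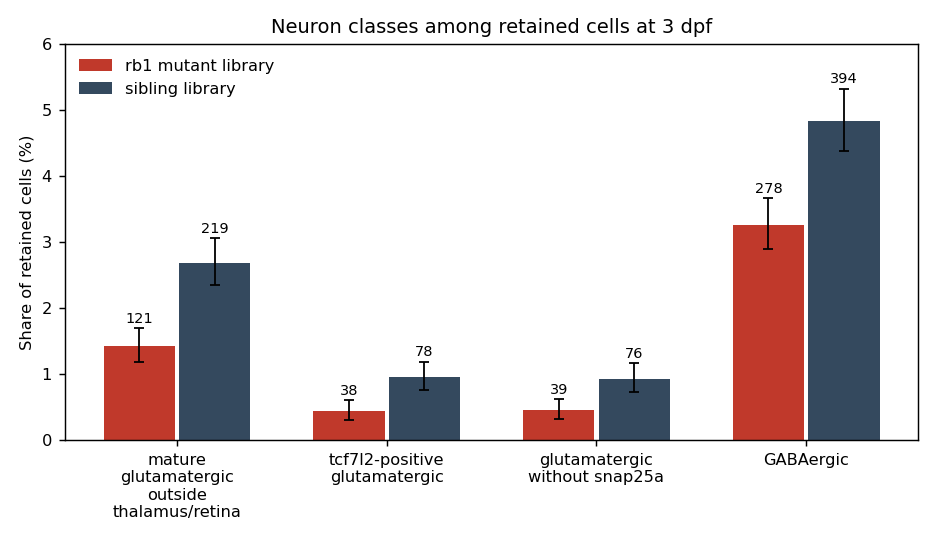
Share of retained cells, in percent, for the mature glutamatergic neurons and the comparison groups in the rb1 mutant (left of each pair) and the sibling library; bars are the shares and the lines on them their 95% Clopper-Pearson intervals. The selected neurons stand at 1.42% in the rb1 mutant and 2.69% in the sibling, and the other groups of neurons are lower in the rb1 mutant as well.

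The selected neurons were a mixture of regional types in both libraries. With at least 2 detected genes of a list of regional factors as the criterion, 17 mutant neurons (14.05%, 8.40 to 21.5) and 42 sibling neurons (19.2%, 14.2 to 25.03) met the telencephalon list. The hypothalamus list was met by 17 mutant (14.05%) and 26 sibling neurons (11.9%), and the hox list of the hindbrain by 22 (18.2%) and 35 (16.0%). Each of these 3 intervals overlapped between libraries. Telencephalon and hox lists were met together in 1 mutant neuron and in no sibling neuron. Other lists overlapped more. Hypothalamus and hox lists were met together in 2 mutant and 4 sibling neurons, and midbrain and hox lists in 13 and 19. The list of cerebellum and zic factors was met by 45 mutant and 78 sibling neurons, of which 6 and 25 also met the telencephalon list. The list of hindbrain interneuron factors was not separate either. Of the neurons that met the telencephalon list, 10 of 17 mutant and 24 of 42 sibling neurons met it too. So did 16 of the 17 mutant and 16 of the 26 sibling neurons that met the hypothalamus list. Of all selected neurons, 71.9% in the rb1 mutant and 59.8% in the sibling met the hindbrain interneuron list. The midbrain list was met by 57 mutant neurons (47.1%) and 89 sibling neurons (40.6%), but it holds meis2a, which also gave UMIs in 25.4% and 24.4% of mesenchyme cells and is not specific in these libraries.

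Some factors known to act together were often found in the same cells. The pairs named first are among those with high overlap. Among neurons with emx3, a homeobox factor of the pallium, 5 of 6 in the rb1 mutant and 11 of 15 in the sibling also had tbr1b, a T-box factor of glutamatergic pallial neurons. phox2bb, which specifies visceral sensory and motor neurons of the hindbrain, accompanied phox2a in 8 of 10 mutant and 10 of 11 sibling neurons with phox2a. otpa accompanied otpb, its paralog in neuroendocrine neurons of the hypothalamus, in 7 of 9 mutant and in all 11 sibling neurons with otpb. Neurons with neurod6b carried neurod1 in 5 of 6 mutant and 22 of 27 sibling cells. The Hox pair hoxb5a and hoxb5b was shared in 5 of 9 mutant and 6 of 8 sibling neurons with hoxb5a. In the other direction each share was lower, with emx3 in 5 of 11 mutant and 11 of 22 sibling neurons with tbr1b. phox2a was in 8 of 12 and 10 of 14 with phox2bb, and otpb in 7 of 19 and 11 of 23 with otpa. neurod6b was in 5 of 11 and 22 of 48 with neurod1, and hoxb5a in 5 of 10 and 6 of 16 with hoxb5b. Some other pairs of the telencephalon list met less often. foxg1a was in 1 of 6 mutant and 4 of 15 sibling neurons with emx3, and tbr1b in 2 of 6 and 5 of 27 with neurod6b. Paralogs can share reads where their 3' ends are alike, and this was not tested for the paralog pairs of Phox2, Otp, NeuroD and Hox genes.

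**Figure D2:**
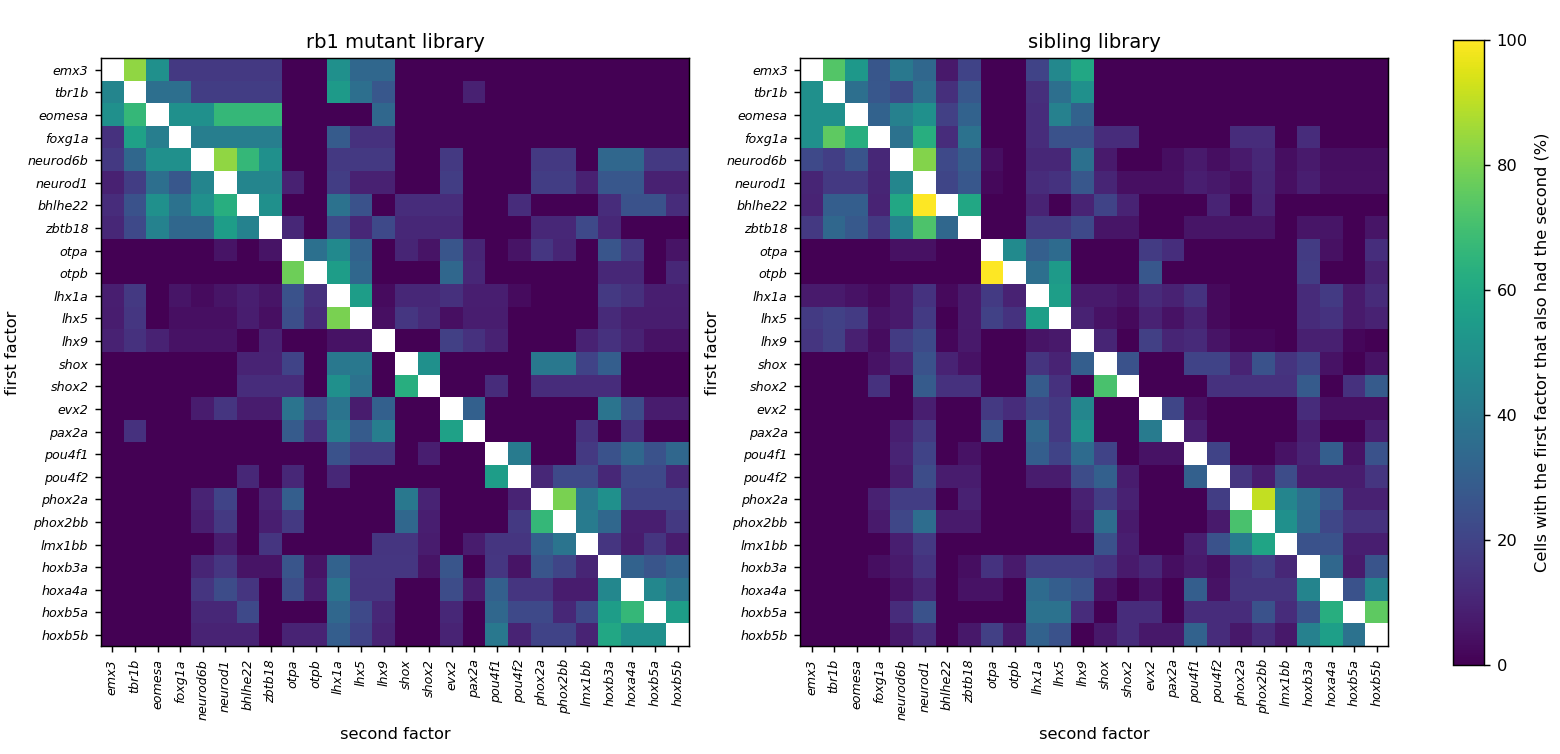
Percentage of selected neurons with the gene of the row that also carried the gene of the column, for regional transcription factors, in the rb1 mutant (left panel) and the sibling (right panel). The pairs emx3 with tbr1b, phox2a with phox2bb and otpb with otpa stand out in both panels, with 5 of 6, 8 of 10 and 7 of 9 neurons in the rb1 mutant.

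Other genes went with these factors in both libraries, in a comparison of neurons with and without a factor that was made after the values were seen. Neurons with tbr1b had 564 CPM of grm2a, a metabotropic glutamate receptor, against 18.7 CPM in the other mutant neurons, and 496 against 13.04 CPM in the sibling. They also had 441 against 25.7 CPM of eomesa, a T-box factor, in the rb1 mutant, and 296 against 46.9 CPM in the sibling. Neurons with neurod1 carried bhlhe22, a bHLH factor of differentiating pallial and retinal neurons, at 427 against 7.30 CPM in the rb1 mutant and 196 against 0 CPM in the sibling. Those with phox2bb had lmx1bb, a LIM factor, at 396 against 33.6 CPM in the rb1 mutant and 365 against 12.3 CPM in the sibling. Neurons with otpa had cbln1, a secreted organizer of glutamatergic synapses, at 644 against 255 CPM in the rb1 mutant and 975 against 194 CPM in the sibling. Neurons with hoxa4a had pou4f1, a POU factor, at 325 against 43.5 CPM in the rb1 mutant and 252 against 49.2 CPM in the sibling. These companions were picked for being higher with the factor in both libraries, and each set holds few cells. Only part of each set carried its companion. grm2a was in 4 of 11 mutant and 4 of 22 sibling neurons with tbr1b, and bhlhe22 in 5 of 11 and 10 of 48 with neurod1. lmx1bb was in 5 of 12 and 7 of 14 neurons with phox2bb, cbln1 in 7 of 19 and 9 of 23 with otpa, and pou4f1 in 4 of 13 and 6 of 20 with hoxa4a.

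NeuroD factors, bHLH factors that drive and maintain neuronal differentiation, were in a smaller share of the mutant neurons. neurod1 was found in 11 mutant neurons (9.09%) and 48 sibling neurons (21.9%), at 119 CPM and 212 CPM, a ratio of 0.562 (0.409 to 0.762). In mesenchyme cells neurod1 was found in 3.75% and 2.68%. neurod6b was found in 6 and 27 neurons, at 29.8 CPM and 97.5 CPM, a ratio of 0.306 (0.1604 to 0.542), neurod6a in 4 and 15, and neurod2 in 3 and 17. Among all other retained cells, neurod1 was at a ratio of 0.945 and neurod6b of 0.981.

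Taken as a set chosen after these values were seen, any of neurod1, neurod2, neurod6a and neurod6b was present in 14 of 121 mutant neurons (11.6%, 6.47 to 18.7) and in 55 of 219 sibling neurons (25.1%, 19.5 to 31.4). After thinning to 2000 UMIs the shares were 10 of 101 (9.90%) in the rb1 mutant and 45 of 182 (24.7%) in the sibling. As the genes were grouped for being lower in these cells, these shares are a description. In the other retained cells the set was present in 21.6% of mutant and 20.5% of sibling cells.

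Other regional factors shared this difference only in part. Of the NeuroD genes, neurod6a and neurod6b were in the telencephalon list, and neurod1 and neurod2 in the list of cerebellum and zic factors. Among neurons with neurod1, 2 of 11 in the rb1 mutant and 8 of 48 in the sibling had tbr1b. Whether the NeuroD difference lay in pallial neurons was not tested. tbr1b was found in 11 mutant neurons (9.09%) and 22 sibling neurons (10.0%), at 89.4 CPM and 96.3 CPM, a ratio of 0.928 (0.625 to 1.36). foxg1a, the forkhead factor of the telencephalon, was found in 7 and 8 neurons. emx3 was found in 6 and 15 neurons, and eomesa in 6 and 16. lhx9, a LIM factor of several excitatory populations, was found in 21 mutant neurons (17.4%) and 58 sibling neurons (26.5%), at 145 CPM and 236 CPM, a ratio of 0.613 (0.459 to 0.810). barhl2 was found in 14 and 29 neurons, with a ratio of 0.689 (0.407 to 1.13).

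The summed levels of otpa and phox2bb were higher in the mutant neurons, but they came from few cells in either library. otpa was found in 19 mutant neurons (15.7%) and 23 sibling neurons (10.5%), at 439 CPM and 280 CPM, a ratio of 1.57 (1.296 to 1.90). phox2bb was found in 12 and 14 neurons, at 230.0 CPM and 122 CPM, a ratio of 1.89 (1.43 to 2.50), and was at 1.95 in all other cells too. In mesenchyme cells otpa was found in 4.57% of the rb1 mutant and 3.45% of the sibling cells, and phox2bb in 0.816% and 0.767%. The share of neurons with otpa or otpb was 17.4% (11.1 to 25.3) in the rb1 mutant and 10.5% (6.78 to 15.3) in the sibling, and that with phox2a or phox2bb was 11.6% (6.47 to 18.7) and 6.85% (3.88 to 11.1). Both pairs of intervals overlapped. The intervals of the otpa and phox2bb ratios cover counting error only and leave out the spread between cells. In thinned cells the ratio of variance to mean was 11.0 in the rb1 mutant and 10.9 in the sibling for otpa. It was 4.90 and 7.37 for phox2bb. A single mutant cell held 20.4% of the UMIs of the hypothalamus list. Under some alternative the ratio of that list fell to 0.636, and that of the cranial list to 0.530.

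lhx1a, a LIM factor of hindbrain interneurons, was found in 36 mutant neurons (29.8%) and 41 sibling neurons (18.7%), at 204 CPM and 99.8 CPM, a ratio of 2.05 (1.52 to 2.77). When the cells were thinned to 2000 UMIs before the rule was applied, the lhx1a ratio was 0.909, and the cause of this reversal was not tested. lhx5, a relative of lhx1a, was at 85.2 CPM in the rb1 mutant and 76.8 CPM in the sibling, a ratio of 1.11 (0.730 to 1.66). Either of them was found in 33.9% (25.5 to 43.05) of mutant and 26.9% (21.2 to 33.3) of sibling neurons, with overlapping intervals. Hox genes stood close to equal, with a summed level of 558 CPM in the rb1 mutant and 561 CPM in the sibling, a ratio of 0.995. hoxa4a was found in 13 and 20 neurons, and hoxb5b in 10 and 16. The level of meis1b was 354 CPM in the rb1 mutant and 346 CPM in the sibling.

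**Figure D3:**
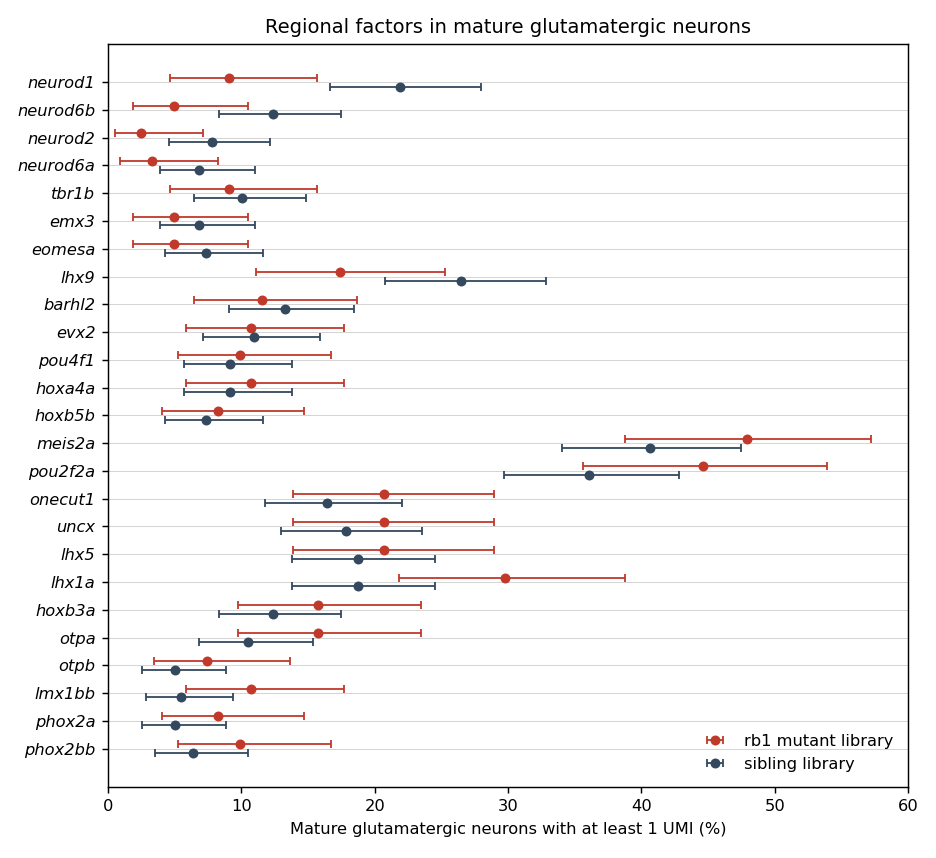
Percentage of the selected neurons with at least 1 UMI of each regional factor, with 95% Clopper-Pearson intervals, in the rb1 mutant and the sibling. NeuroD factors are lower in the rb1 mutant, as for neurod1 at 9.09% against 21.9%, while otpa is at 15.7% against 10.5% and tbr1b at 9.09% against 10.0%.

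Secreted peptides split the neurons further. adcyap1b, which encodes the peptide PACAP, was widely found: 62 mutant neurons (51.2%) and 135 sibling neurons (61.6%) carried it, against 3.10% and 2.22% of mesenchyme cells. Its level was 988 CPM in the mutant neurons and 1315 CPM in the sibling neurons, a ratio of 0.751 (0.673 to 0.837). cbln1 was found in 27 and 46 neurons, at 319 CPM and 264 CPM, a ratio of 1.21 (0.979 to 1.49). bdnf, a neurotrophin whose RNA depends on activity, was found in 19 mutant neurons (15.7%) and 62 sibling neurons (28.3%), at 68.2 CPM and 130 CPM, a ratio of 0.526 (0.344 to 0.785). In the other retained cells bdnf was at 0.506, so a lower bdnf level in the mutant library was not found in these neurons alone.

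Neurons with bdnf carried more adcyap1b than those without, at 2056 against 735 CPM in the rb1 mutant and 2604 against 716 CPM in the sibling. vgf, a secretory granule protein induced by neurotrophins, was at 467 against 36.9 CPM in the rb1 mutant and 314 against 123 CPM in the sibling. nr4a1, an activity-induced nuclear receptor, was at 122 against 42.2 CPM in the rb1 mutant and 264 against 65.5 CPM in the sibling. These genes too were picked for being higher with bdnf in both libraries, so this is a description. Of the 19 mutant and 62 sibling neurons with bdnf, adcyap1b was in 15 and 45, vgf in 11 and 31, and nr4a1 in 5 and 25.

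Other peptides were carried by single cells, so that their sums say little about the genotype. tac1, the tachykinin precursor, had 122 UMIs in 8 mutant neurons, of which 79 were in 1 cell, and 315 UMIs in 13 sibling neurons, of which 164 were in 1 cell. pyya, a peptide of the NPY family, had 660 of 708 UMIs in 1 mutant neuron and 707 of 779 in 1 sibling neuron. npvf, an RFamide peptide of the hypothalamus, had 0 UMIs in the mutant neurons and 2416 of 2418 UMIs in 1 sibling neuron, and cort, a somatostatin-like peptide, had 297 UMIs in 1 mutant neuron and 1 UMI in the sibling. Over the whole list of peptides the level was 4221 CPM in the rb1 mutant and 6619 CPM in the sibling, with 33.6% and 42.2% of the UMIs in 1 cell.

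Between the genotypes, 1965 genes had at least 100 UMIs over the selected neurons of both libraries, and the median ratio of the rb1 mutant over the sibling was 0.955. At least 2-fold higher in the mutant neurons were 14 genes (0.712%) and at least 2-fold lower were 29 genes (1.48%). More than 25% of the UMIs in the higher library came from 1 cell for 6 of the 14 genes and 6 of the 29. These counts fall to 0 and 7 when cells are thinned to 2000 UMIs before the rule is applied, where fewer genes reach 100 UMIs.

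**Figure D4:**
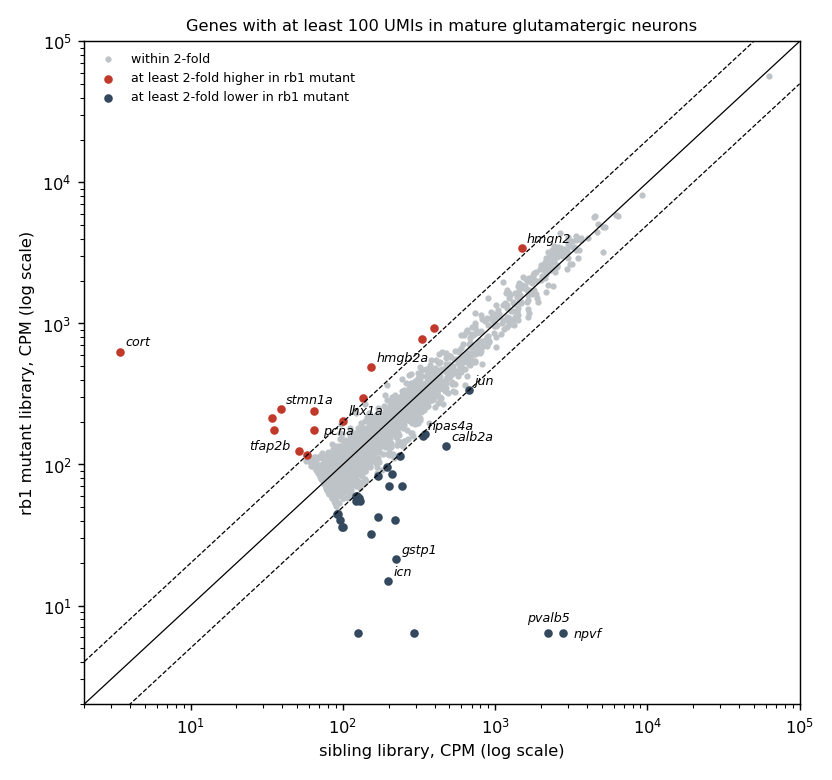
Level of 1965 genes summed over the selected neurons, in CPM on log axes, with the rb1 mutant on the vertical and the sibling on the horizontal axis; levels under 3 counts are drawn at that floor and lines mark 2-fold differences. Most genes lie near the diagonal, with 14 at least 2-fold higher and 29 at least 2-fold lower in the rb1 mutant.

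Genes of synaptic vesicles and release sites were moderately lower in the mutant neurons. Their summed level was 7236 CPM in the rb1 mutant and 8857 CPM in the sibling, a ratio of 0.817 (0.785 to 0.851). None of 18 measured members was 2-fold higher or lower, beside 0.712% higher and 1.48% lower over all genes. The median ratio of the 18 was 0.810 beside 0.955 over all genes. syt1a, the calcium sensor of fast release, was at 677 CPM in the rb1 mutant and 1013 CPM in the sibling, a ratio of 0.669 (0.586 to 0.761). sv2a, a vesicle membrane protein, was at 530 CPM and 713 CPM, and vamp2, the vesicle SNARE, at 618 CPM and 766 CPM. Among all other retained cells the list was at a ratio of 0.676, further below 1 than in the selected neurons.

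Receptors and channels had few UMIs per gene. Glutamate receptor genes summed to 807 CPM in the rb1 mutant and 1025 CPM in the sibling, a ratio of 0.787 (0.696 to 0.889). grin1a, an obligatory NMDA receptor subunit, was at 168 CPM and 153 CPM, a ratio of 1.103 (0.824 to 1.47), and gria2b, an AMPA receptor subunit, at 78.8 CPM and 139 CPM, a ratio of 0.568 (0.382 to 0.827). GABA and glycine receptor genes were at 609 CPM and 709 CPM, a ratio of 0.859 (0.744 to 0.990). glrbb, the glycine receptor beta subunit, was at 281 CPM and 248 CPM, a ratio of 1.14 (0.907 to 1.42). In all other retained cells the glutamate receptor list was at a ratio of 0.588 and the GABA and glycine receptor list at 0.636. Both were further below 1 there than in the selected neurons.

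Genes of mature neurons taken as a list were at 12056 CPM in the rb1 mutant and 13722 CPM in the sibling, a ratio of 0.879 (0.851 to 0.907). None of 21 measured members was 2-fold away, beside 0.712% higher and 1.48% lower over all genes. In all other retained cells the list was at a ratio of 0.7165, further below 1 than in the selected neurons. rbfox3a, which encodes the splicing factor NeuN, went the other way, at 285 CPM and 195 CPM, a ratio of 1.46 (1.16 to 1.85). Axon growth genes were at 20395 CPM and 21450 CPM, a ratio of 0.951. Of 22 measured members of that list, 1 was 2-fold higher and none 2-fold lower, beside 0.712% higher and 1.48% lower over all genes. gap43, a growth cone protein, was at 1420 CPM and 1610 CPM, a ratio of 0.882 (0.803 to 0.968), and elavl3, an RNA-binding protein of young neurons, at 1112 CPM and 1031 CPM, a ratio of 1.08.

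That axon growth member was stmn1a, a stathmin that frees tubulin from microtubules and is abundant in dividing and newly born cells. It had 116 UMIs in 30 mutant neurons (24.8%), of which 35 were in 1 cell, and 34 UMIs in 15 sibling neurons (6.85%), or 247 CPM and 39.0 CPM, a ratio of 6.34 (4.29 to 9.58). Its paralog stmn1b, of differentiated neurons, was at 3456 CPM and 3318 CPM.

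**Figure D5:**
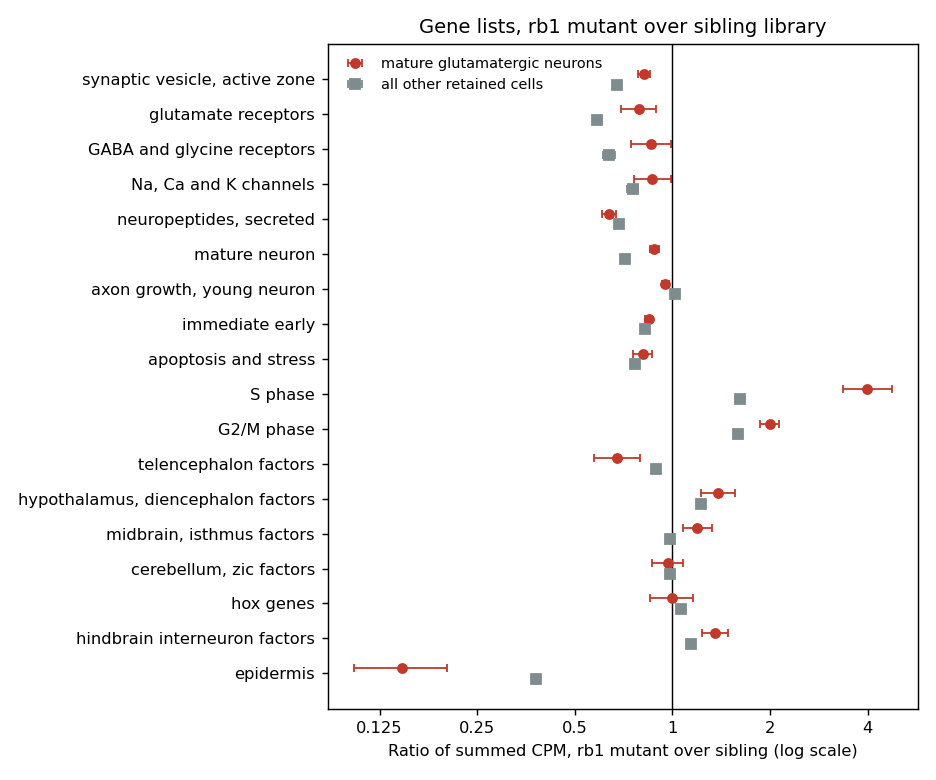
Ratio of the summed level in the rb1 mutant over the sibling for a selection of the gene lists, on a log axis. Points stand for the selected neurons and for all other retained cells, with 95% intervals from counting error. S-phase genes are at 3.99 and G2/M genes at 1.99 in the selected neurons, synaptic genes at 0.817 and epidermis genes at 0.147.

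Of the gene lists, that of S phase had the highest ratio in the selected neurons. Its genes summed to 432 UMIs or 920.0 CPM in the rb1 mutant and 201 UMIs or 231 CPM in the sibling, a ratio of 3.99 (3.37 to 4.74), and were at 1.62 in all other retained cells. Only pcna, the clamp of DNA polymerase, had enough UMIs to be counted among the 1965 genes, at 177 CPM in the mutant neurons and 64.2 CPM in the sibling neurons, a ratio of 2.75. dut, which keeps uracil out of DNA, had 73 UMIs in 16 mutant neurons and 18 UMIs in 13 sibling neurons, a ratio of 7.53 (4.45 to 13.4). In mesenchyme cells dut was found in 29.7% and 20.3%. At least 3 S-phase genes were found in 37.4% of mutant and 25.2% of sibling mesenchyme cells. They may make dut RNA themselves, so they cannot gauge free dut RNA.

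At least 1 S-phase gene was found in 62 mutant and 90 sibling neurons, but most of the mutant UMIs were in few of them. At least 3 S-phase genes were found in 19 mutant neurons (15.7%, 9.73 to 23.4) and 7 sibling neurons (3.20%, 1.295 to 6.48). Those 19 held 85.0% of the S-phase UMIs of the mutant neurons, and those 7 held 43.8% of the sibling ones. As these cells were picked by their S-phase genes, a high share is partly built in. The 19 mutant cells were deeper than the rest, with a median of 6200 UMIs against 3507 in the other mutant neurons. After thinning to 2000 UMIs, 15 of 101 mutant neurons (14.9%, 8.56 to 23.3) and 7 of 182 sibling neurons (3.85%, 1.56 to 7.76) had at least 2 S-phase genes, and these intervals did not overlap. The selected neurons were not the only group with this difference. The S-phase level was 1405 CPM in GABAergic neurons of the rb1 mutant and 158 CPM in those of the sibling. In glutamatergic neurons with tcf7l2 it was 2321 CPM and 96.5 CPM. The mutant GABAergic group also held 5803 CPM of red blood cell genes, against 226 CPM in the sibling group. Its epidermis genes were at 2321 CPM against 578 CPM. Whether barcodes with RNA of other cell types raised its S-phase level was not tested.

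The list of the Rb family and of cell cycle entry, with E2F factors, D-type cyclins and inhibitors of cyclin-dependent kinases, was at 368 CPM in the rb1 mutant and 350 CPM in the sibling, a ratio of 1.05 (0.869 to 1.27). Most of its RNA was cdkn1bb, a p27-type inhibitor that holds neurons out of the cycle, with 101 UMIs in 66 mutant neurons and 175 UMIs in 102 sibling neurons, or 215 CPM and 201 CPM, a ratio of 1.07 (0.830 to 1.38). The relatives of rb1 were scarce. rbl2, a pocket protein of resting cells, had 8 UMIs in the mutant neurons and 13 UMIs in the sibling neurons, and rbl1, of dividing cells, 1 UMI in each. e2f3, a factor that drives S-phase genes, was found in 7 mutant neurons with 1 UMI each and in 1 sibling neuron with 1 UMI. cdkn2c, an inhibitor of the cyclin D kinases, had 5 UMIs in 4 mutant neurons and 0 UMIs in the sibling neurons, which allows up to 3.44 CPM there.

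Genes of G2 and mitosis were at 4027 CPM in the rb1 mutant and 2020 CPM in the sibling, a ratio of 1.99 (1.87 to 2.13), and 2 of 3 measured members were 2-fold higher, beside 0.712% of all genes. These were hmgb2a and hmgb2b, chromatin proteins of dividing and young cells. Without them and the tubulin gene tubb4b, the list had 294 UMIs in the mutant neurons and 18 UMIs in the sibling neurons. At least 3 of its genes were found in 4 mutant neurons (3.31%, 0.908 to 8.25) and in 1 sibling neuron (0.457%, 0.0116 to 2.52). The 4 mutant cells held 262 of the 294 UMIs and had a median depth of 9024 UMIs, against 3594 in the other mutant neurons. They held 155 of the 229 hmgb2a UMIs, and the level of hmgb2a was 170 CPM in the other 117 mutant neurons and 129 CPM in the sibling neurons without its 1 such cell. They also carried neuronal RNA, with 162 UMIs of stmn1b, 140 UMIs of elavl4, 46 UMIs of elavl3 and 29 UMIs of snap25a among them. Whether such a barcode holds 1 cell or a neuron together with a dividing cell was not tested. Without these cells the count of genes 2-fold higher in the rb1 mutant was 5 in place of 14, the G2/M ratio 1.26 and the S-phase ratio 3.72. The selected neurons were not alone in the G2/M difference, as the whole list was at a ratio of 1.60 in all other retained cells. In GABAergic neurons it was at 7303 CPM in the rb1 mutant and 2139 CPM in the sibling. The mutant GABAergic group also held more red blood cell and epidermis RNA than the sibling group, as given above. In glutamatergic neurons with tcf7l2 it was at 11745 CPM and 1992 CPM.

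hmgn2, a nucleosome-binding protein abundant in young cells, was at 3416 CPM in the mutant neurons and 1492 CPM in the sibling neurons, a ratio of 2.29 (2.13 to 2.47). It was found in 113 of 121 mutant and 200 of 219 sibling neurons, and also in 97.6% and 95.9% of mesenchyme cells. Those cells may make hmgn2 RNA themselves, so they cannot gauge its free RNA. hmga1a, a chromatin protein of the same kind of cells, was at a ratio of 2.35.

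Early response genes, whose RNA rises within minutes of neuronal activity or of tissue dissociation, were lower. Their summed level was 17107 CPM in the rb1 mutant and 20251 CPM in the sibling, a ratio of 0.845 (0.823 to 0.867). Of 14 measured members 4 were 2-fold lower and none was 2-fold higher, beside 1.48% lower and 0.712% higher over all genes. Their median ratio was 0.673, beside 0.955 over all genes. npas4a, a factor induced by calcium influx in neurons, was found in 36 mutant and 90 sibling neurons, at 160 CPM and 334 CPM, a ratio of 0.479 (0.366 to 0.619). jun was at 337 CPM and 674 CPM, a ratio of 0.499 (0.416 to 0.596). The other 2 were jund, with 45 and 170 UMIs, and nr4a1, at 57.5 CPM and 128 CPM. fosab was at 1112 CPM and 1633 CPM, a ratio of 0.681 (0.615 to 0.753), while egr4 was at 324 CPM and 266 CPM. The list was at 0.826 in the other retained cells, so the shift was of like size there. The part that dissociation plays in these levels was not tested.

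Genes of apoptosis and of the stress response linked to it were at 2483 CPM in the rb1 mutant and 3064 CPM in the sibling, a ratio of 0.810 (0.756 to 0.868). The list was at 0.768 in all other retained cells. None of 6 measured members was 2-fold away, beside 0.712% higher and 1.48% lower over all genes. sesn1, a stress-induced gene, had 63 UMIs in the mutant neurons and 216 in the sibling neurons, a ratio of 0.542.

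calb2a, the calcium-binding protein calretinin of many interneurons and sensory relay neurons, had 63 UMIs in 8 mutant neurons and 413 UMIs in 32 sibling neurons, or 134 CPM and 474 CPM, a ratio of 0.283 (0.214 to 0.370). It was at 0.312 in all other retained cells, but at 1.26 when the cells were thinned to 2000 UMIs before the rule was applied, where 44 mutant and 88 sibling neurons qualified. Further genes with at least 2-fold lower levels were fstl5, a secreted follistatin-like protein, with 17 and 87 UMIs, atp1b1b, a sodium pump subunit, with 40 and 182, and uts1, urotensin 1, with 26 and 113, of which 70.8% in the sibling were in 1 cell.

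RNA of another tissue differed between the libraries. The epidermis list had 42 UMIs or 89.4 CPM in the mutant neurons and 531 UMIs or 609 CPM in the sibling neurons, a ratio of 0.147 (0.105 to 0.201), and was at 0.381 in all other retained cells. All 17 of its genes were in the files and 16 had a UMI in the selected neurons. At least 2 of its genes were found in 5 mutant neurons (4.13%) and 91 sibling neurons (41.6%). The keratin gene krt4 was found in 9.09% of mutant and 30.1% of sibling neurons, and in 16.7% and 41.3% of mesenchyme cells, so epidermal RNA was more widespread across the whole sibling library.

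A few sibling cells stood apart here. At least 10 UMIs of pvalb5, a parvalbumin, were found in no mutant neuron and in 6 sibling neurons. These 6 cells held 1948 pvalb5 UMIs and 184 of the 531 epidermis UMIs, with 6558 CPM of the epidermis list against 411 CPM in the other 213 sibling neurons. They also held 25 of 28 UMIs of ompb, a gene of olfactory receptor neurons, which had 0 UMIs in the mutant neurons. Of the genes that were at least 2-fold lower in the rb1 mutant, these 6 cells carried most sibling UMIs of icn (125 of 172), gstp1 (153 of 195) and txn (82 of 133). Without them the epidermis ratio was 0.218. The part of these cells and of epidermal RNA in the other differences was not tested beyond that.

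RNA of further cell types was found at low levels. Microglia genes had 6 UMIs in the mutant neurons and 8 in the sibling neurons, and endothelial genes 2 and 8. At least 2 radial glia genes were found in 37.2% of mutant and 37.9% of sibling neurons. Their summed level was 756 CPM and 638 CPM, beside 6557 CPM and 6060 CPM in the other retained cells of the rb1 mutant and the sibling, and gfap, a glial filament gene, had 1 UMI in each library. Red blood cell genes were found in 50 mutant and 91 sibling neurons, at 175 CPM and 194 CPM beside 9420 CPM and 12133 CPM in the other cells. Skeletal muscle genes were found in 37 and 56 neurons, at 115 CPM and 80.3 CPM beside 286 CPM and 404 CPM.

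Set against GABAergic neurons of the same library, 32 of 2035 genes (1.57%) were at least 2-fold higher and 33 (1.62%) at least 2-fold lower in the selected neurons in both libraries. nrn1a, a membrane-anchored protein of growing excitatory axons, was at 501 CPM in the selected neurons and 13.8 CPM in GABAergic neurons of the rb1 mutant, and at 528 CPM and 14.1 CPM in the sibling. adcyap1b was at 988 CPM in the selected neurons and 51.9 CPM in GABAergic neurons of the rb1 mutant, and at 1315 CPM and 30.1 CPM in the sibling. slc32a1 was at 2.13 CPM in the selected neurons and 297 CPM in GABAergic neurons of the rb1 mutant, and at 3.44 CPM and 533 CPM in the sibling. dlx2a, a factor of GABAergic forebrain neurons, was at 2.13 CPM in the selected neurons and 91.7 CPM in GABAergic neurons of the rb1 mutant, and at 0 CPM and 83.4 CPM in the sibling. These contrasts are measured over cells that the rule chose, and are a description.

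Set against the glutamatergic neurons with tcf7l2, 8 of 942 genes (0.849%) were at least 2-fold higher and 10 (1.06%) at least 2-fold lower in the selected neurons in both libraries. otpa was at 439 CPM in the selected neurons and 9.67 CPM in neurons with tcf7l2 in the rb1 mutant, and at 280 CPM and 24.1 CPM in the sibling. meis1b, phox2bb and mab21l2 were also higher. hox genes were 3.39 times as high in the rb1 mutant and 4.90 times in the sibling, and the other genes of the thalamus and pretectum list were at 0.382 and 0.476 times the level there. In the selected neurons these genes had 458 CPM in the rb1 mutant and 475 CPM in the sibling, against 304 CPM and 320 CPM in all other retained cells. They were found in 64 mutant and 115 sibling neurons. Whether thalamic or pretectal neurons were among the selected cells was not tested. gng8, a G protein subunit of habenular and olfactory neurons, had 0 UMIs in the selected neurons of both libraries, and 118 and 490 UMIs in the neurons with tcf7l2. lhx9 was at 145 CPM in the selected neurons and 455 CPM in those with tcf7l2 in the rb1 mutant, and at 236 CPM and 395 CPM in the sibling. As tcf7l2 itself separates the groups, these contrasts are a description.

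Set against glutamatergic cells without snap25a, 61 of 839 genes (7.27%) were at least 2-fold higher and 11 (1.31%) at least 2-fold lower in the selected neurons in both libraries. Synaptic vesicle genes were 2.38 times as high in the rb1 mutant and 2.12 times in the sibling. sh3gl2a, an endophilin of vesicle recycling, was 5.03 and 6.49 times as high, and sncgb, a synuclein, 6.66 and 4.12 times. her15.1, a Notch-induced factor of progenitors, was at 0.0439 and 0.0693 times the level, and hmgb2a at 0.153 and 0.148 times. hmgn2, which was higher in the mutant neurons, was at 0.276 times the level in the rb1 mutant and 0.481 times in the sibling, so in both libraries it was lower in the neurons with snap25a. As the groups are separated by snap25a, itself a synaptic gene, these contrasts are a description. The cells without snap25a had a median of 2953 UMIs in the rb1 mutant and 2190 UMIs in the sibling. Their epidermis list was at 947 CPM and 3703 CPM.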

How the data were processed

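Single-cell RNA was measured in 1 rb1 mutant and 1 sibling library of zebrafish whole brain. The authors deposited UMI counts per gene and barcode, made with Cell Ranger (5.0.0 in the matrix header, 5.1.0 in the submitters' processing notes) on GRCz11, with barcodes called by EmptyDrops. Their Seurat 3.1.1 normalization and removal of doublets are not in these counts. No doublets were removed in the main values. As an alternative, barcodes in the top 7.5% by Scrublet score (Scanpy 1.11.5) were left out.

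Counts were summed over the selected neurons of each library and divided by their total, in CPM. Levels have exact Poisson intervals, ratios exact conditional binomial intervals and shares Clopper-Pearson intervals. No model was fitted and no p-value computed, since each genotype has 1 library. A zero was read against a floor of 3 counts. A gene was counted as higher or lower at 2-fold with at least 100 UMIs over both libraries' selected neurons. Shares were also computed after thinning each cell to 2000 UMIs. The script was tested on simulated data.

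The selection rule and the 36 gene lists were chosen with earlier results of these data known. Named genes were drawn from those lists and from the 15 genes each way with the largest ratio between genotypes and against each comparison group. They were also drawn from the 30 genes that vary most among the neurons. Only part of these genes is named. Genes that go with a factor, sets of factors, and a few markers outside the lists were picked after their values were seen. Python 3.11.15, NumPy 2.4.6, SciPy 1.17.1 and pandas 2.3.3 were used. No nucleotide sequences are printed.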

Additional observations from a re-analysis of the deposited data

How the results depend on the processing

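The share of mature glutamatergic neurons, rb1 mutant over sibling, was between 0.424 and 0.669 under every alternative tried, and it moved beyond its counting interval only with at least 1 slc17a6 UMI (0.669). The alternatives that leave out cells with mitotic genes or with pvalb5, and the G2/M list without tubb4b, hmgb2a and hmgb2b, were chosen after seeing the data. The number of genes 2-fold higher in the rb1 mutant (14) was 8 without the highest Scrublet scores, 54 with at least 1 slc17a6 UMI, 8 with at least 3, 25 with snap25a not required, 47 with no excluded genes, 0 after thinning to 2000 or 1000 UMIs, 5 without the cells with G2/M genes, 41 with at least 50 UMIs per gene, 6 with at least 200, and 51 at 1.5-fold. The number 2-fold lower (29) was in turn 19, 87 with at least 1 slc17a6 UMI, 46 with snap25a not required, 97 with no excluded genes, 7 and 2 after thinning to 2000 and 1000 UMIs, 99 with at least 50 UMIs per gene, 14 with at least 200, and 124 at 1.5-fold. The S-phase ratio (3.99) was 6.06 with at least 1 slc17a6 UMI, 7.93 with at least 3, 5.83 with snap25a not required, 5.02 with at least 2 snap25a UMIs, 5.86 with no excluded genes, 5.06 with more excluded genes, 5.33 after thinning to 1000 UMIs and 3.17 with each neuron weighted equally. The G2/M ratio (1.99) was 1.77 without the highest Scrublet scores, 1.86 without the upper limits on genes and UMIs, 3.14 with at least 1 slc17a6 UMI, 2.29 with at least 3, 2.27 with snap25a not required, 2.17 with at least 2 snap25a UMIs, 2.97 with no excluded genes, 1.36 and 1.24 after thinning to 2000 and 1000 UMIs, 1.26 without the cells with G2/M genes, 1.55 with equal weights and 30.3 with the shorter list. The cause of these shifts was not tested. Of the list and gene ratios at least 2-fold from 1 in the main values, several crossed 1. The endothelium list (1.91 with no excluded genes, 2 thinned to 2000 UMIs) and cort (0 with at least 3 slc17a6 UMIs, which leaves its cell out) did so. Thinned to 2000 UMIs, calb2a (1.26) and lhx1a (0.909) crossed 1. Thinned to 1000 UMIs, lhx1a (0.400), hcfc1a (0.857), arpc5la (1.2), atp1b1b (2.4), ier3ip1 (1.5), jdp2b (1.2), jund (1.2), npas4a (1.43), nr4a1 (2) and rasd1 (3.14) did. si:ch211-153b23.5 was at 1.80 without the pvalb5 cells. Some lists closer to 1 crossed it too. Under some alternative the peptide list (0.638) reached 1.13, early response genes (0.845) 1.02, and GABA and glycine receptors (0.859) 1.23. The hypothalamus list (1.38) fell to 0.636 and the cranial list (1.34) to 0.530. Synaptic vesicle, glutamate receptor and mature neuron lists stayed under 1. No paired analysis was possible because each genotype has 1 library. Thinning to 1000 UMIs leaves 23 mutant and 46 sibling neurons, so single genes cannot be compared at that depth.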

Other observations

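Some peptides and transmitter genes were found in only a few of the selected neurons. pmchl, a melanin-concentrating hormone-like peptide of the hypothalamus, had 86 of its 87 UMIs in 1 rb1 mutant neuron and 0 UMIs in the sibling neurons. galn, galanin, had 32 UMIs in the mutant neurons and 3 in the sibling neurons, sst1.1, a somatostatin, 23 and 0, crhb, corticotropin-releasing hormone, 0 and 29, penka, proenkephalin, 0 and 20, and ccka, cholecystokinin, 2 and 49. th, the enzyme that starts catecholamine synthesis, had 3 UMIs in the mutant neurons and 7 in the sibling neurons, and dbh, which makes noradrenaline, 0 and 5. olig2, a factor of motor neuron and oligodendrocyte precursors, had 0 UMIs in the mutant neurons and 19 UMIs in 6 sibling neurons.

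Among the genes whose counts varied most between neurons after thinning to 2000 UMIs were otpb, otpa, tac1, hoxb5b, adcyap1b, pcp4a and calb2a. The ratio of variance to mean was 24.6 in the rb1 mutant and 16.1 in the sibling for otpb, 21.8 and 35.3 for tac1, 11.0 and 10.9 for otpa, 8.13 and 7.86 for hoxb5b, 7.14 and 10.5 for adcyap1b and 6.96 and 8.67 for pcp4a. pcp4a, a calmodulin regulator, was found in 58.7% of mutant and 47.5% of sibling neurons, at 975 CPM and 900.3 CPM, a ratio of 1.08 (0.963 to 1.22), and in 4.16% and 5.22% of mesenchyme cells.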
